A study of Mus musculus with 2 samples.

Results

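Chromosome 8 of F121-6, a hybrid line of mouse embryonic stem cells, is described here through allele-resolved ATAC-seq counts. ATAC-seq marks open chromatin by letting a transposase insert adapters where DNA is exposed. All 2382 windows of 50 kb that the deposited table lists for the chromosome were taken, of 43941 windows on 19 chromosomes. The chromosome was picked because its counts lean to the castaneus (CAS) allele, so the size of that lean is a description here and carries no test. F121-6 is female and carries 129 and CAS genomes, so every chromosome is present in a 129 and a CAS version in the same nucleus, and both alleles come from the same library. The cells were kept on mitomycin-C-inactivated mouse embryonic fibroblast feeders in serum medium with LIF, a cytokine that keeps stem cells undifferentiated. There is 1 group of 2 replicates, with no treatment. Nothing in the labels says whether the replicates were separate cultures, so the spread between them may be technical, and p-values measure the spread between these samples alone.

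In a hybrid cell the counts of the parental alleles can part in different ways. A sequence difference at an enhancer or promoter opens or closes that site on one allele and leaves distant sites alone. An additional or missing copy of a whole chromosome moves the allele's counts along its entire length, and gain of chromosome 8 is a known recurrent change of mouse embryonic stem cells in culture. DNA copy number was not analysed here, so at the scale of the whole chromosome a copy change and a chromosome-wide difference in openness cannot be told apart. What the counts can show is how even the lean is from place to place, and where single sites depart from it.

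The listed windows run from 3200001 to 129300000 (mm10), and 140 of the 2522 windows of that grid are not in the table. What 1 count stands for (a read, a fragment or a peak) is not stated, and the counts vary less than independent reads would. If they are not reads, a share does not measure the amount of DNA on an allele, and shares in quiet windows need not compare with those in open ones. Of the 2382 windows, 1310 overlap a protein-coding gene. The counts per window and allele reach at most 15, and 18.4% of the chromosome's windows held no count on either allele in either replicate, against 21.9% on the other 18 chromosomes. Over the whole table, replicate 1 held 90154 counts with a 129 share (129 over the sum of both alleles) of 48.8%, and replicate 2 held 119807 with a share of 49.9%. Stem cell markers were open: the 10 genes of a marker list with Nanog, Pou5f1 and Zfp42 averaged 10.1 and 12.2 counts per window in replicates 1 and 2, where the average window held 2.05 and 2.73. The 10 feeder fibroblast markers averaged 2.47 and 3.16, near the average window, with none at 0 in both replicates. The part of feeder DNA in the allelic values was not tested.

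The promoters printed here belong to genes in windows that the results name. Zfp42 encodes Rex1, a zinc finger protein used as a marker of naive stem cells, and its start lies in the window with the most counts on the chromosome. Cdt1 encodes the licensing factor that loads the replicative helicase onto origins, and Isx encodes an intestinal homeobox factor. The starts of both lie in windows that follow the lean of the chromosome, with CAS above 129 in both replicates. The sequences come from RefSeq (GRCm38.p6, the same primary sequence as mm10). Each runs from 250 bases before to 50 bases after the gene's start, and comes from the reference strain, so none shows the 129 or CAS variants. In the Zfp42 promoter, on the minus strand at chr8:43306960-43307259, the capitals mark an octamer, ATGCAAAT or its reverse complement ATTTGCAT, the motif bound by the stem cell factor Pou5f1 (Oct4). In the other promoters, Cdt1 at chr8:122567765-122568064 and Isx at chr8:74872924-74873223, both on the plus strand, the capitals mark each CpG.
Zfp42: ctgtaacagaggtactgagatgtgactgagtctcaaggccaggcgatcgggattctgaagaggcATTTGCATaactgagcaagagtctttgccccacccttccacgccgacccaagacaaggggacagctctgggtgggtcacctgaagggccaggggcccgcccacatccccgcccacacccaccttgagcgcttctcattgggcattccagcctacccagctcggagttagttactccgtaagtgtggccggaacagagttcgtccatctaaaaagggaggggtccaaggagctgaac
Cdt1: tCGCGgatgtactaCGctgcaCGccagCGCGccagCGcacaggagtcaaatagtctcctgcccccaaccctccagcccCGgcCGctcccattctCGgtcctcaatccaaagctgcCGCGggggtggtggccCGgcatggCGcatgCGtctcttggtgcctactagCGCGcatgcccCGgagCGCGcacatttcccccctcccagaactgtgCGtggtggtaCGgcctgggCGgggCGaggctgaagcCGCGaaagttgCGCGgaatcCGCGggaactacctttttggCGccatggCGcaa
Isx: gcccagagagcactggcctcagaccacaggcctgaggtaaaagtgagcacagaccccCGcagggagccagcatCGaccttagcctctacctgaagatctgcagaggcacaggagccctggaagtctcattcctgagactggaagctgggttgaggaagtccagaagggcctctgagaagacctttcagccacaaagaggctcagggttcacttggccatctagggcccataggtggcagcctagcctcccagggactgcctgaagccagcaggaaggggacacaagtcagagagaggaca
The Zfp42 octamer begins 186 bp before the start of the gene. On either strand 1.74% of all 32851 promoters hold these letters, and 2.36% of the 1442 promoters of chromosome 8. A match is a description and not evidence of binding. The Cdt1 promoter has 32 CpG in 300 bases and the Isx promoter 2, against a median of 8 on chromosome 8.

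CAS counts exceeded 129 counts on the chromosome in both replicates. Replicate 1 had 2264 counts on 129 and 2829 on CAS, a 129 share of 44.5% (exact Clopper-Pearson 95% interval 43.1 to 45.8%). In replicate 2 there were 2859 counts on 129 and 3986 on CAS, or 41.8% on 129 (40.6 to 42.9%). The mean was 43.1% ± 1.90 (SD, n = 2). These intervals cover counting error only.

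Against the other chromosomes pooled, the CAS level was higher and the 129 level lower. The mean CAS count per window of chromosome 8 was 13.99% above that of the other chromosomes in replicate 1 (1.19 against 1.04) and 24.2% above it in replicate 2 (1.67 against 1.35). The mean 129 count per window was lower than on the other chromosomes, at 0.9505 against 1.00 in replicate 1 and 1.20 against 1.37 in replicate 2. The 129 level lay within the range of the others: 12 and 14 of the 18 other chromosomes lay above it in replicates 1 and 2, and the others ranged from 0.849 to 1.15 and from 1.07 to 1.59. The CAS level stood near or at the top, with 1 chromosome above it in replicate 1 (chromosome 7, at 1.28) and 0 in replicate 2. Counts per window are relative to each library, and chromosomes differ in gene content, so these levels do not say which allele changed.

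**Figure D1:**
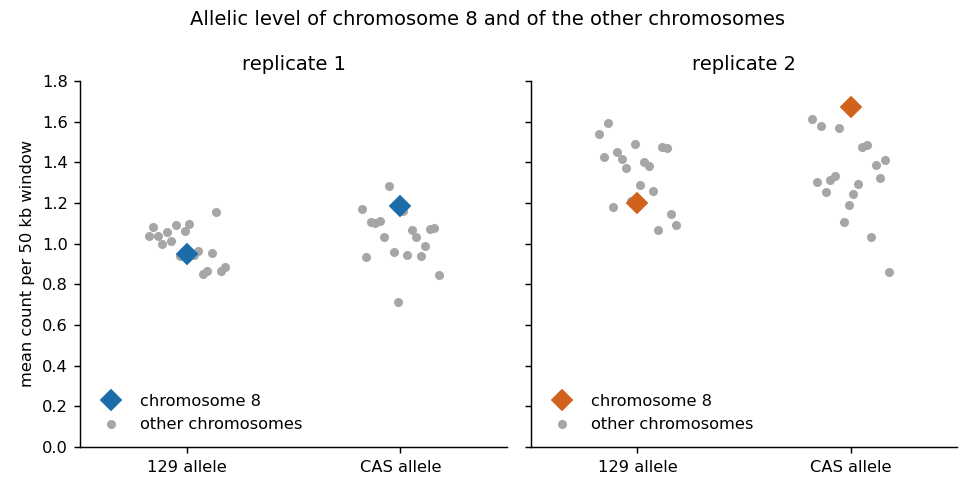
Mean count per 50 kb window of the 129 allele (left in each panel) and the CAS allele (right) for chromosome 8 (diamond) and each of the 18 other chromosomes (grey points, no error bars) in replicate 1 and replicate 2. The 129 diamonds, at 0.9505 and 1.20, lie among the grey points, and the CAS diamonds, at 1.19 and 1.67, lie near or above the highest.

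The chromosomes most alike in direction were 18 and 14, with 129 shares of 44.7% ± 0.174 and 45.5% ± 0.533 (SD, n = 2 each). Their replicates were closer to each other than those of chromosome 8. The share of chromosome 8 was 2.69 percentage points lower in replicate 2 than in replicate 1, whereas it was higher in replicate 2 on 16 of the 18 other chromosomes (median change 1.87 points). Chromosome 10, which leans to 129, changed by -4.20 points. As a scale for these sizes, counts that followed copy number strictly would give a share of 50% with equal copies and 33.3% with 1 additional CAS copy in every cell. Whether these counts follow copy number was not tested, and this scale does not apply if they count peaks or sites.

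**Figure D2:**
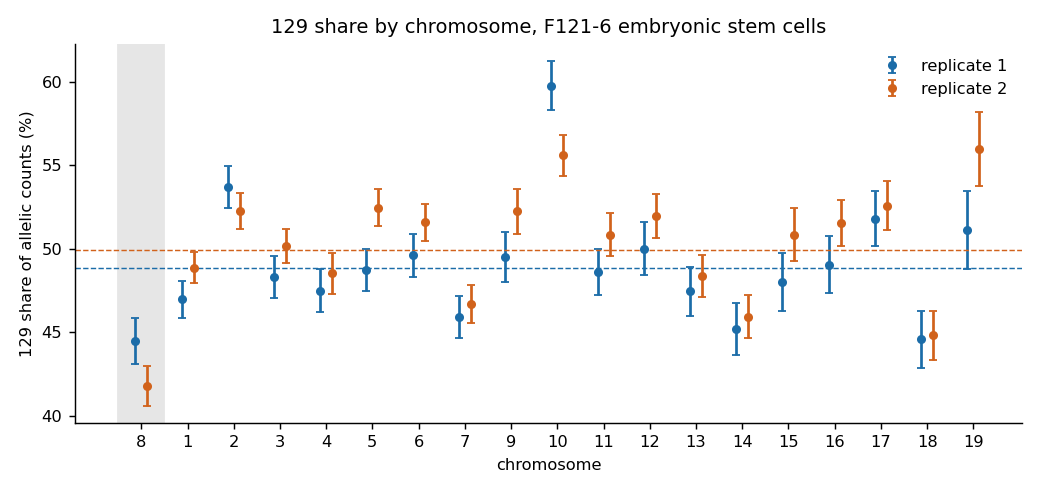
The 129 share of allelic counts (percent) of each chromosome, with chromosome 8 first and shaded, for replicate 1 (blue) and replicate 2 (orange). Bars are exact 95% intervals for counting error and dashed lines mark the share over all chromosomes of each replicate. Chromosome 8 has shares of 44.5% and 41.8%.

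Along the chromosome the lean was present throughout. All 26 segments of 5 Mb had a 129 share under 50% in both replicates. Set against the share of the whole genome in the same replicate, 25 of the 26 segments leaned to CAS in both replicates, as did 36.8% of all 487 segments of the table, and the remaining 1 was split. In replicate 1 the segments ranged from 40.1% at 90 to 95 Mb to 49.1% at 20 to 25 Mb, with a median of 44.6%. In replicate 2 they ranged from 38.5%, again at 90 to 95 Mb, to 49.2% at 120 to 125 Mb, with a median of 41.4%. In smaller steps, 106 of the 127 bins of 1 Mb held 20 or more counts in each replicate. Of these, 79 lay on the CAS side of the genome in both replicates, 4 on the 129 side and 23 were split, where 33.2% of all such bins in the table lay on the CAS side in both. These counts describe the contrast the chromosome was picked for.

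The spread among the segments was no larger than independent reads would give. The SD of their log2 ratio of 129 to CAS (pseudocount 0.5, mean of the replicates) was 0.12. The counting error of independent reads alone gives 0.14, a ratio of 0.840. On the other chromosomes that ratio had a median of 0.989 and ran from 0.702 (chromosome 3) to 2.18 (chromosome 10), and 4 of the 18 were below chromosome 8. The log2 ratios of the replicates correlated at r = 0.351 over the 26 segments, a description of segments that share their libraries. Allelic counts in this table vary less than independent reads do, with 0.268 and 0.405 of the binomial variance in windows of chromosome 8 with 4 or more counts (replicates 1 and 2), so a ratio under 1 does not show that the segments are alike.

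The 2 replicates were not alike in profile. Of the 26 segments, 20 had a lower 129 share in replicate 2 and 6 a higher one. The longest run of segments lower in replicate 2 had 18 segments, from 15 to 105 Mb, and over that stretch 129 made up 44.6% of counts in replicate 1 and 40.8% in replicate 2. Before it the shares were 44.9% and 45.7%, and beyond it 44.0% and 44.6%. The run was picked from these values, so the contrast carries no test.

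**Figure D3:**
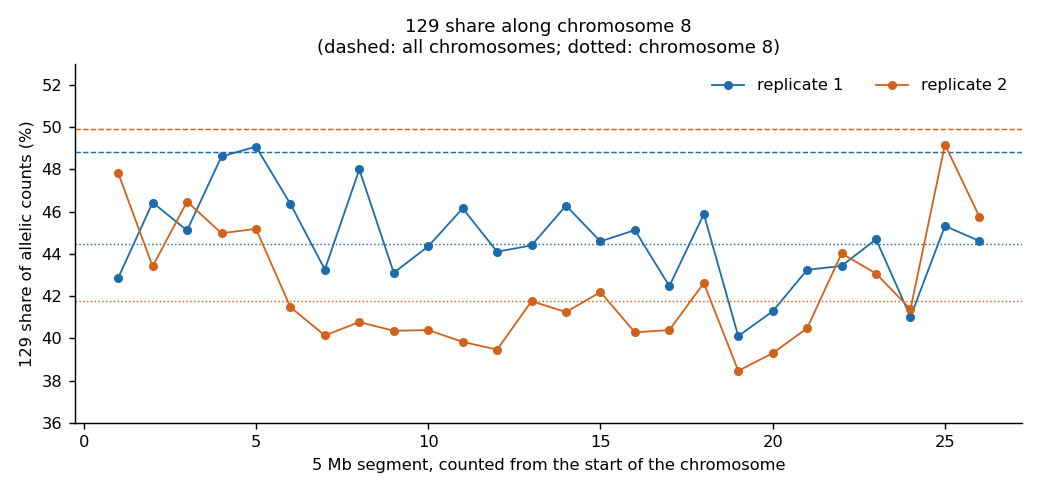
The 129 share of allelic counts (percent) in consecutive 5 Mb segments of chromosome 8 in replicate 1 (blue) and replicate 2 (orange). Dashed lines mark the share over all chromosomes and dotted lines that of chromosome 8. Replicate 2 runs below replicate 1 in segments 4 to 21, from 15 to 105 Mb, and in 2 of the 8 segments outside that run.

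Departures from the level of the chromosome were tested in 1 Mb bins, with the total of each chromosome in each column as the offset, so that an even shift of a whole chromosome leaves no difference. edgeR's quasi-likelihood test called 0 of 119 bins of chromosome 8 (0% of the 2095 bins of all chromosomes were called, and 1.19% had an unadjusted p under 0.05), at a Benjamini-Hochberg adjusted p threshold of 0.05. At an unadjusted p under 0.05 it found 0 of the 119, against 25 of 2095, and the smallest adjusted p on chromosome 8 was 1.00. DESeq2's Wald test and limma also called 0 of the 119 and found 0 at an unadjusted p under 0.05. None of these fits used the pairing of the alleles within a library. With the replicate as a block edgeR called 0 bins of chromosome 8 (0.143% of all bins, 0.0477% with CAS higher) and found 1 at an unadjusted p under 0.05 (3.34% of all bins). Once edgeR's Poisson lower bound on p was also dropped, an alternative added after seeing the data, 2 of the 119 bins were called (2.96% of all bins), both with 129 above the chromosome level (111 to 112 Mb and 121 to 122 Mb). The log2 differences from the chromosome level had an SD of 0.28 over the 119 bins and ran from -0.73 to 0.79, where those of other chromosomes had an SD of 0.29 and ran from -1.30 to 2.23. Without the block, dropping the bound called 0 bins on any chromosome. The lack of calls in fits with the bound or without the block does not show that the shift is even.

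Tested against the whole genome (TMM scaling), 112 of the 119 bins had a log2 ratio below 0, with a median of -0.37 against 0.02 elsewhere. edgeR called 0 of the 119 (0% of all bins) and found 6 at an unadjusted p under 0.05 (2.39% of all bins), all with CAS higher. With the replicate as a block it called 0 (0.334% of all bins, 0.0477% with CAS higher) and found 26 at an unadjusted p under 0.05 (7.68% of all bins). Without the Poisson bound as well it called 38, all with CAS higher (12.2% of all bins, 5.97% with CAS higher). The chromosome was picked on this contrast, so nothing is read from these counts.

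**Figure D4:**
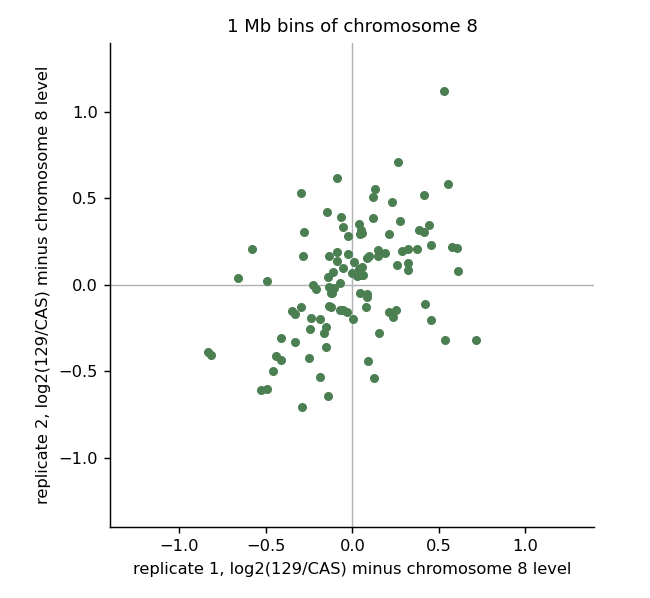
Log2 ratio of 129 to CAS minus the level of chromosome 8 in replicate 1 (horizontal axis) and replicate 2 (vertical axis), for the 106 bins of 1 Mb with 20 or more counts in each replicate. Each point is 1 bin. Of the bins, 38 lie above and 33 below the chromosome level in both replicates, and 35 lie on opposite sides.

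Among the 106 bins with 20 or more counts in each replicate, the highest above the chromosome level was that from 121 to 122 Mb. It holds the forkhead genes Foxf1, Foxc2 and Foxl1, regulators of mesoderm, together with Slc7a5, an amino acid transporter gene. The window of Foxf1 held no count. Foxc2 and Foxl1 share a window with 3 on 129 and 4 on CAS in replicate 1, and 2 on 129 and 0 on CAS in replicate 2. Over the whole bin, replicate 1 had 22 counts on 129 and 19 on CAS, and replicate 2 had 19 on 129 and 12 on CAS. Here 129 was the higher allele in both replicates, in contrast to the chromosome (log2 0.79 above the chromosome level, SE 0.46, edgeR adjusted p = 1.00; blocked by replicate, SE 0.20, adjusted p = 0.998). The SEs come from the F statistic, and the Poisson bound can raise p, so an SE and its p need not match. For this bin and later items, counts after the word then are those of replicate 2. Next came the bin from 23 to 24 Mb, with the ankyrin gene Ank1, the Wnt antagonist gene Sfrp1 and Gins4, a subunit of the replicative helicase, at 13 on 129 and 11 on CAS, then 14 on 129 and 13 on CAS. The bin from 111 to 112 Mb, with the tRNA synthetase genes Aars and Kars, had 32 on 129 and 30 on CAS, then 38 on 129 and 37 on CAS. That from 120 to 121 Mb, with Gins2, another helicase subunit gene, Gse1 and Irf8, had 25 on 129 and 26 on CAS, then 13 on 129 and 11 on CAS. The bin from 45 to 46 Mb, with the atypical cadherin gene Fat1 and the innate receptor gene Tlr3, had 33 on 129 and 27 on CAS, then 34 on 129 and 41 on CAS.

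These 5 bins overlap 7 to 23 coding genes each, and the 5 on the CAS side 0 to 3. Under the same count limit the lowest was 58 to 59 Mb, which overlaps the glycosyltransferase gene Galntl6. In it replicate 1 had 9 counts on 129 and 14 on CAS, and replicate 2 had 16 on 129 and 37 on CAS. A bin with fewer counts, 62 to 63 Mb, lay lower in the fit (log2 -0.73), at 7 on 129 and 11 on CAS, then 12 on 129 and 32 on CAS. The bin from 50 to 51 Mb, which overlaps no coding gene, had 10 on 129 and 18 on CAS, then 21 on 129 and 45 on CAS. The nearest coding gene is Tenm3, which lies outside the bin and ends at 49522824. Tenm3 encodes a teneurin, a synaptic adhesion protein. The bin from 81 to 82 Mb, with the phosphatase gene Inpp4b, had 12 on 129 and 22 on CAS, then 19 on 129 and 41 on CAS. Those from 99 to 100 Mb and from 102 to 103 Mb hold the cadherin genes Cdh8 and Cdh11. Cdh8's bin had 7 on 129 and 16 on CAS, then 23 on 129 and 43 on CAS, and Cdh11's had 6 on 129 and 14 on CAS, then 20 on 129 and 37 on CAS. The 4 windows of Cdh11 itself had 4 on 129 and 3 on CAS, then 5 on 129 and 9 on CAS, so the gene had no shared direction. With the Poisson bound on p, none of the 10 named bins passed the edgeR test, blocked or not. Blocked and without that bound, the bins at 111 to 112 Mb (adjusted p = 0.0491) and 121 to 122 Mb (adjusted p = 0.0408) passed.

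How the lean related to the openness of a window was examined by placing windows in classes by their count in one replicate and reading the 129 share in the other, a choice made after seeing the data. On chromosome 8 the share was lowest in the quietest windows. In replicate 2, 129 made up 30.6% of counts in the 861 windows at 0 in replicate 1 (95% interval 27.4 to 34.0%) and 37.7% in those with 1 count (34.2 to 41.3%). The share was 41.0% (38.8 to 43.2%) in windows with 2 or 3 counts, 44.9% (42.6 to 47.2%) with 4 to 6, 46.3% (43.1 to 49.6%) with 7 to 10 and 47.8% (43.3 to 52.3%) with 11 or more. In replicate 1 the order was similar, at 37.4% (28.5 to 46.9%) in windows at 0 in replicate 2 and 47.5% (43.2 to 51.8%) in those with 11 or more, and 44.0% to 45.0% in the 3 classes with 2 to 10. Pooled over the other 18 chromosomes, the classes spanned 50.0% to 50.9% in replicate 2 and 47.1% to 49.2% in replicate 1.

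**Figure D5:**
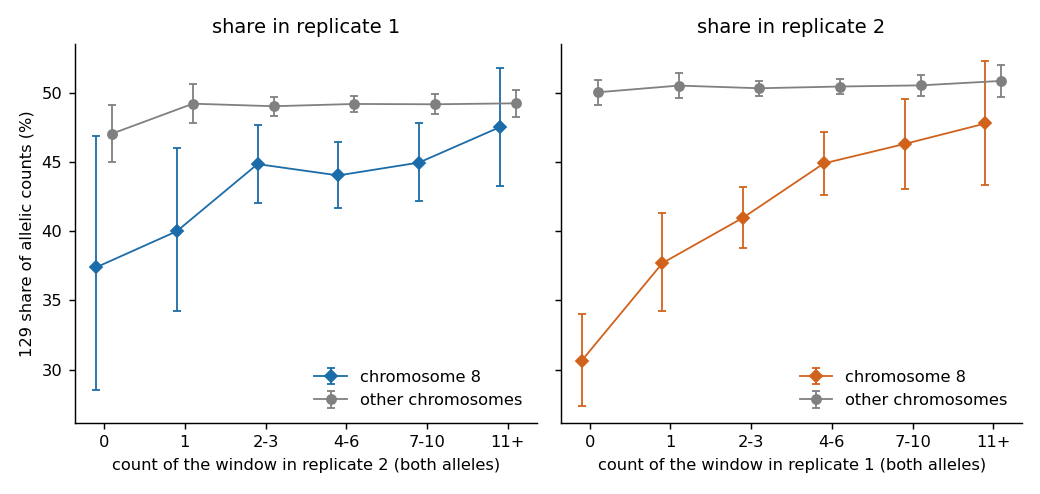
The 129 share of allelic counts (percent) in replicate 1 (left) and replicate 2 (right), for windows classed by their count of both alleles in the other replicate, on chromosome 8 (diamonds) and on the 18 other chromosomes (grey circles). Bars are exact 95% intervals for counting error. On chromosome 8 the share runs from 30.6% in windows at 0 to 47.8% in windows with 11 or more in replicate 2, whereas the grey circles stay near 50%.

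The size of the CAS excess per window was also read by class. In replicate 2 the difference of 129 minus CAS was -0.346 in windows at 0 in replicate 1. Windows with 1 count in replicate 1 held 0.770 counts on 129 and 1.27 on CAS in replicate 2, a difference of -0.503 per window. In those with 11 or more the difference was -0.595. In replicate 1 it was -0.0563 in windows at 0 in replicate 2, -0.141 with 1 count and -0.600 with 11 or more. The same classes were read on 3 other chromosomes. On chromosome 18 the replicate 2 share was 38.9% in windows at 0 and 49.7% in those with 11 or more, and on chromosome 14 it was 43.8% (40.4 to 47.3%) and 46.4% (40.6 to 52.3%), with overlapping intervals. On chromosome 10, which leans to 129, it was 59.5% and 54.1%. In replicate 1 the shares of the same classes were 37.2% and 47.9% on chromosome 14, close to those of chromosome 8. They were 37.1% and 45.1% on chromosome 18, and 75.8% and 58.4% on chromosome 10. Whether the gradient of chromosome 8 differs from theirs was not tested.

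The alleles also differed in how many windows held any count. On chromosome 8, 51.3% of windows had a 129 count and 58.3% a CAS count in replicate 1, and 60.2% a 129 count and 72.5% a CAS count in replicate 2. Windows with 129 counts only numbered 132 against 299 with CAS counts only in replicate 1, and 141 against 434 in replicate 2, or 2.27 and 3.08 CAS-only windows for each 129-only window. On the other chromosomes there were 1.14 and 0.964. Windows with counts on both alleles had a 129 share of 46.2% in replicate 1 and of 44.5% in replicate 2, a selection that drops the one-sided windows and so moves the share toward balance by construction. Occupied windows held 1.85 (129) and 2.04 (CAS) counts in replicate 1, and 2.00 (129) and 2.31 (CAS) in replicate 2.

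Windows without a coding gene leaned further than those with one, most in replicate 2. Their share was 42.8% (40.2 to 45.5%) in replicate 1 and 39.1% (37.2 to 41.0%) in replicate 2. Windows that overlap a coding gene had 45.1% (43.5 to 46.7%) and 43.3% (41.9 to 44.8%). Elsewhere in the genome the windows without a coding gene had 48.1% and 50.1% and those with one 49.5% and 50.6%. Windows without a coding gene are also quieter, with 0.554 counts on 129 and 0.740 on CAS in replicate 1, so gene content and signal move together.

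Windows with a shared direction in both replicates mostly had the direction that the chromosome was picked for, so their counts carry no test. CAS was higher by 3 or more counts in both replicates in 11 windows (0.462%, against 0.271% of all windows) and 129 in 0 windows (0.234% of all windows), with 0 windows opposite. Chromosome 14 had 10 such windows on the CAS side (0.478%) and 1 on the 129 side, and chromosome 18 had 5 (0.291%) and 3. At any difference, CAS was higher in both replicates in 414 windows of chromosome 8 (17.4%, against 9.87% of all windows) and 129 in 101 (4.24%, against 8.96%). At a difference of 2 or more there were 72 windows on the CAS side (3.02%, against 1.5% of all windows) and 5 on the 129 side (0.21%, against 1.26%), with 7 opposite. Besides Zfp42, the 5 included windows in Galntl6 at 57850001 to 57900000 and Cdyl2, a chromodomain gene, at 116550001 to 116600000, each with 2 counts on 129 and 0 on CAS, then 3 on 129 and 0 on CAS. The other 2 had 3 on 129 and 1 on CAS in both replicates, 23270 bp from Mfap3l, and 3 on 129 and 1 on CAS, then 4 on 129 and 2 on CAS, 22680 bp from Anapc10. After each allele was scaled to its own total on chromosome 8, 0 windows were left on the CAS side at 3 or more and 3 stood on the 129 side. These were the Zfp42 window described next, the window at 111900001 to 111950000 over Chst5, Tmem231 and the autophagy gene Gabarapl2 (7 on 129 and 5 on CAS, then 8 on 129 and 7 on CAS), and that at 112400001 to 112450000, 119798 bp from the neurexin-family gene Cntnap4 (7 on 129 and 5 on CAS, then 7 on 129 and 6 on CAS).

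Zfp42 lies across 2 windows that point in opposite directions. The window at 43300001 to 43350000 holds the start of the gene and the promoter shown above. There 129 had 8 counts against 11 on CAS in replicate 1, and 129 had 10 against 14 on CAS in replicate 2. The window before it, at 43250001 to 43300000, holds the 3' end of the gene and the DNA beyond it, and had 9 on 129 and 7 on CAS, then 15 on 129 and 9 on CAS. It is the window of the chromosome with the largest summed excess of 129, 8 counts. Together they held 17 counts on 129 and 18 on CAS, then 25 on 129 and 23 on CAS, so over both windows the alleles differed by 1 and 2 counts. Its neighbours were quieter: the window over Triml1 and Triml2 at 43150001 to 43200000 had 6 on 129 and 8 on CAS, then 7 on 129 and 6 on CAS, and that at 43350001 to 43400000 had 3 on 129 and 3 on CAS, then 4 on 129 and 4 on CAS.

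The other windows with CAS higher by 3 or more were spread along the chromosome. The Cdt1 window at 122550001 to 122600000, shared with the mechanosensitive channel gene Piezo1, the purine salvage gene Aprt and Galns, had 6 counts on 129 and 9 on CAS, then 3 on 129 and 7 on CAS. The Isx window at 74850001 to 74900000 had 2 on 129 and 6 on CAS, then 2 on 129 and 5 on CAS. Chd9, a chromatin remodeller gene, had 4 on 129 and 7 on CAS, then 4 on 129 and 8 on CAS at 90800001 to 90850000. Cpe, the carboxypeptidase E gene, had 1 on 129 and 4 on CAS, then 2 on 129 and 6 on CAS at 64550001 to 64600000.

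A pair of windows far from genes had no 129 count at all. The window at 62500001 to 62550000, 376808 bp from Anxa10, had 3 counts on CAS, then 4, and that at 116100001 to 116150000, 355015 bp from the dynein light chain gene Dynlrb2, had 3 on CAS in both replicates. Of the rest, the window near Sgo2b at 63700001 to 63750000 had 1 on 129 and 4 on CAS, then 3 on 129 and 7 on CAS. The window at 25900001 to 25950000, over Kcnu1 and the lysosomal gene Hgsnat, had 3 on 129 and 6 on CAS, then 4 on 129 and 7 on CAS. At 83150001 to 83200000 Tbc1d9 had 2 on 129 and 5 on CAS in both replicates, and at 117450001 to 117500000 Cmip with the phospholipase gene Plcg2 had 3 on 129 and 6 on CAS, then 2 on 129 and 5 on CAS.

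In the windows with the most counts both alleles were well covered. Eif4ebp1, the gene of a translation repressor, had 10 counts on 129 and 14 on CAS, then 9 on 129 and 9 on CAS at 27250001 to 27300000. The window before it, over Got1l1 and the adrenergic receptor gene Adrb3, had 10 on each allele in both replicates. The deadenylase scaffold gene Cnot1 had 7 on 129 and 11 on CAS, then 11 on 129 and 10 on CAS at 95800001 to 95850000. Hand2, a heart and limb factor, had 7 on 129 and 8 on CAS, then 9 on 129 and 10 on CAS at 57300001 to 57350000, and the window of Apela, a peptide hormone gene that stem cells express, had 7 on 129 and 6 on CAS, then 7 on 129 and 9 on CAS at 65000001 to 65050000. The window with the cell cycle factor gene E2f4 at 105250001 to 105300000 had 7 on 129 and 11 on CAS, then 7 on 129 and 8 on CAS, and that of Rbpms at 33800001 to 33850000 had 6 on 129 and 8 on CAS, then 8 on 129 and 9 on CAS. Cbr4 with Palld at 61500001 to 61550000 had 7 on 129 and 7 on CAS, then 9 on 129 and 6 on CAS, and Smim31 at 65050001 to 65100000 had 6 on 129 and 7 on CAS, then 8 on 129 and 8 on CAS.

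Over genes, with counts summed over every window a gene overlaps, 865 of 1043 coding genes had a count. Of these, 44 were higher on 129 in both replicates (5.09%, against 14.5% of all genes) and 272 higher on CAS (31.4%, against 15.5%). The median log2 ratio was -0.24, against 0 on the other chromosomes. Neighbouring genes can count the same window, and the contrast is the one the chromosome was picked on, so the counts for gene groups are read only beside these.

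Of 15 replication and genome architecture genes that held counts, 0 favoured 129 and 7 favoured CAS in both replicates, with a median log2 ratio of -0.43. Besides Cdt1, the insulator protein gene Ctcf had 6 counts on 129 and 7 on CAS, then 4 on 129 and 7 on CAS, and the core-binding factor gene Cbfb had 6 on 129 and 7 on CAS, then 5 on 129 and 8 on CAS. The ribonuclease gene Rnaseh2a, which shares its window with Junb and Prdx2, had 8 on 129 and 10 on CAS, then 5 on 129 and 5 on CAS. Among pluripotency and signalling genes, 1 of 8 was higher on 129 and 3 on CAS (median -0.32). The 1 was Cdh1, the E-cadherin gene that holds stem cell colonies together, with 9 on 129 and 7 on CAS, then 8 on 129 and 6 on CAS. Jund, an AP-1 factor gene, had 4 on 129 and 10 on CAS, then 5 on 129 and 6 on CAS, and Fgfr1, a fibroblast growth factor receptor gene, had 5 on 129 and 6 on CAS, then 5 on 129 and 8 on CAS.

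Transcription factors of differentiated lineages had 0 of 12 higher on 129 and 6 on CAS (median -0.59). The mineralocorticoid receptor gene Nr3c2 had 11 on 129 and 12 on CAS, then 8 on 129 and 20 on CAS, and Zfhx3 had 5 on 129 and 11 on CAS, then 3 on 129 and 5 on CAS. Of 8 cadherin genes, 1 was higher on 129 (Cdh1) and 4 on CAS (median -0.48): Cdh8 had 5 on 129 and 10 on CAS, then 13 on 129 and 27 on CAS, and Cdh13 had 4 on 129 and 11 on CAS, then 5 on 129 and 13 on CAS. Long genes expressed in neurons had 0 of 15 higher on 129 and 7 on CAS (median -0.44). Summed over 27 windows Tenm3 had 21 on 129 and 35 on CAS, then 33 on 129 and 49 on CAS, and Inpp4b over 17 windows had 9 on 129 and 18 on CAS, then 16 on 129 and 35 on CAS. Not all leaned: Csmd1, a complement regulator gene with 34 windows, had 21 on 129 and 17 on CAS, then 28 on 129 and 28 on CAS. Over all windows of the long genes, 129 held 45.3% of counts in replicate 1 but 38.9% in replicate 2.

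Clustered gene families were closer to balance, on few counts. Of 53 defensin genes, antimicrobial peptides, 17 had a count, in 10 windows. These held 12 counts on 129 and 13 on CAS in replicate 1, and 14 on each in replicate 2. Of these genes 4 were higher on 129 and 2 on CAS (median 0.29). The 4 all overlap 1 shared window, which had 2 on 129 and 1 on CAS in both replicates. Defb5 had 4 on 129 and 2 on CAS, then 4 on 129 and 3 on CAS, and Defb8 0 on 129 and 1 on CAS, then 0 on 129 and 3 on CAS. The carboxylesterase genes, which hydrolyse esters and drugs in liver, had 4 of 13 higher on 129 and 1 on CAS (median 0), with 11 on 129 and 11 on CAS, then 14 on 129 and 13 on CAS, over 11 windows. Of the 4 on the 129 side, Ces1b and Ces1c share a window. Each had 2 on 129 and 1 on CAS, then 3 on 129 and 2 on CAS. Ces4a had 5 on 129 and 3 on CAS in both replicates and Ces5a 0 on 129 and 3 on CAS, then 1 on 129 and 2 on CAS. Whether either family differs from the chromosome was not tested, and counts this small cannot show it.

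Among zinc finger genes there were 0 of 21 higher on 129 and 8 higher on CAS (median -0.18), with Zfp423 at 6 on 129 and 9 on CAS, then 7 on 129 and 9 on CAS, and Zfp827 at 1 on 129 and 2 on CAS, then 2 on 129 and 7 on CAS. Of 15 housekeeping genes, 0 were higher on 129 and 2 on CAS (median -0.20), with the purine salvage gene Aprt, in the Cdt1 window, at 6 on 129 and 9 on CAS, then 3 on 129 and 7 on CAS. The 4 metallothionein genes, zinc and copper buffers, shared 2 windows: Mt1, Mt2 and Mt3 had 7 on 129 and 9 on CAS, then 6 on 129 and 6 on CAS, and Mt4 1 on 129 and 2 on CAS, then 0 on 129 and 2 on CAS (median -0.20). Of 10 collagen and matrix genes, 1 was higher on 129 and 5 on CAS (median -0.46). Their windows differed between replicates, with 31 counts on 129 against 30 on CAS in replicate 1 (50.8% on 129) and 40 against 58 on CAS in replicate 2 (40.8% on 129). The protease gene Tll1 had 4 on 129 and 5 on CAS, then 8 on 129 and 13 on CAS, and the basement membrane collagen gene Col4a2 had 1 on 129 and 3 on CAS in both replicates. Vegfc, a lymphatic growth factor gene, had 6 on 129 and 2 on CAS, then 9 on 129 and 9 on CAS. Hhip, a hedgehog antagonist gene, had 3 on 129 and 5 on CAS, then 4 on 129 and 9 on CAS.

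Runs of neighbouring windows with one direction in both replicates were short. Runs on other chromosomes were not read, and the chromosome was picked for its lean to CAS, so the run lengths carry no test. The longest on the CAS side spanned 4 windows, at 3 places. At 56500001 to 56700000, over Cep44 and Fbxo8, it held 7 counts on 129 and 11 on CAS, then 10 on 129 and 18 on CAS. In Inpp4b at 82050001 to 82250000 it held 1 on 129 and 5 on CAS, then 2 on 129 and 11 on CAS, and at 116900001 to 117100000, with the centromere gene Cenpn and Atmin, 9 on 129 and 16 on CAS, then 9 on 129 and 15 on CAS. On the 129 side the longest spanned 2 windows, at 6 places, among them Cdh1 (106600001 to 106700000; 9 on 129 and 7 on CAS, then 8 on 129 and 6 on CAS) and Fat1 with the melatonin receptor gene Mtnr1a (45050001 to 45150000; 5 on 129 and 2 on CAS, then 5 on 129 and 3 on CAS).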

How the data were processed

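The deposited table holds counts per 50 kb window, with no visible normalization, for each allele and replicate (4 columns, 0 further value columns). The sources used here do not state what is counted or how DNA was assigned to an allele. Per the submitters' processing notes, Bowtie2, MACS2, SAMtools and bedtools were used, with the mm10 build. The X chromosome was not analysed here. Windows were matched to RefSeq genes (GRCm38.p6). All windows of chromosome 8 were used. The members, lists and bin sizes were chosen with earlier results of these data known.

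Windows were summed to 1 Mb bins over the whole table and tested with edgeR 4.0.16 (quasi-likelihood, filterByExpr minimum count 10, Benjamini-Hochberg threshold 0.05), with chromosome totals as offsets or TMM. DESeq2 1.42.0 and limma 3.58.1 were alternatives. The fits were also run on simulated data. With a variance of 0.4 of the mean, the main fit with chromosome offsets recovered 0% of bins changed 1.5-fold and 61.5% of those changed 2-fold. With Poisson noise it recovered 6% and 52%. Shares have exact 95% intervals (scipy 1.17.1) that cover counting error only; column totals were 44026 (129) and 46128 (CAS) in replicate 1, with 59812 (129) and 59995 (CAS) in replicate 2. Both alleles were read from the same library, which pairs them by replicate (deviations from the allele means correlated at r = 0.291 over windows).

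Named were the 5 highest and 5 lowest bins against the chromosome (20 or more counts in each replicate, same side in both), windows with a difference of 3 or more in both replicates (10 on the CAS side and ties), the 10 with the most counts with ties, and 2 to 4 genes of each list with the most counts or the largest difference. An item that these rules name is not reported here. Bin SEs come from the F statistic and do not include the Poisson bound on p.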

Additional observations from a re-analysis of the deposited data

How the results depend on the processing

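The 129 share of chromosome 8 (43.1%) stayed below 50% in all 17 alternatives and within the spread of the replicates in 12. It was 45.4% in windows with a count on both alleles and 41.0% in windows without a coding gene. In windows classed by the other replicate, chosen after seeing the data, it was 38.9% with 1 count, 45.6% with 7 to 10 and 47.6% with 11 or more. With 1 replicate left out it ranged from 41.8 to 44.5%. These values set the spread, so they lie within it by construction, and they count among the 12. Leaving out each of 4 equal parts of the chromosome in turn, it stayed within the spread of the replicates.

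The SD over segments (0.120) was 0.224 in 2 Mb segments, which hold fewer counts and so have more counting error. It was 0.128 in replicate 1 alone and 0.163 in replicate 2 alone. The counting error of independent reads would give 0.215 and 0.189 there. The 11 windows with a shared direction were 77 at a difference of 2 or more, 515 at 1 or more, and 3, all on the 129 side, after scaling to the totals of chromosome 8.

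In 1 Mb bins, the count of chromosome 8 bins called was 0 in the edgeR fits, with or without chromosome offsets, and in all other alternatives but 1. That was edgeR with the replicate block and without the Poisson lower bound on p, added after seeing the data, where the bound assumes at least the variance of independent reads. Against the chromosome level it called 2 bins of chromosome 8 (2.96% of all bins), both on the 129 side: 111 to 112 Mb (log2 0.47, adjusted p = 0.0491) and 121 to 122 Mb (log2 0.79, adjusted p = 0.0408). Against the genome it called 38, all on the CAS side (5.97% of all bins). The replicate block alone left the counts on chromosome 8 at 0. Leaving out a replicate leaves no residual degrees of freedom, so these fits were not run with 1 library. Depth limits single windows most, since their counts are small.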
